A study of Mus musculus with 28 samples.

Results

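Tumor-bearing mice sampled 21 days after tumor inoculation were compared with those sampled after 14 days. The comparison takes every tumor-bearing sample of these days by its label, 3 mice at day 21 and 8 mice at day 14, so 11 of the 28 samples of the series. All were female BALB/c mice that carried a microporous polycaprolactone (PCL) scaffold under the skin and had been inoculated with 4T1-luc2-tdTomato cells, a mouse mammary carcinoma line tagged with luciferase and a red fluorescent protein. The scaffold is a porous polymer disc that host tissue grows into, and RNA came from this infiltrate, 1 sample per mouse. The healthy mice of the same days, 3 at day 21 and 8 at day 14, carried the same scaffold and served as the background for time alone. Their labels list the tumor line too, and the condition at analysis set the groups. The age of the mice is not given in the sources used here, and nothing in the labels ties mice of the 2 days to each other, so every mouse contributes a single time point. The labels describe the samples as biological replicates. The model is a single transplantable tumor line in a single inbred strain, and the measured tissue is a foreign-body implant, not the tumor.

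Neutrophils are short-lived phagocytes made in the bone marrow, where their granule proteins are transcribed in sequence: the proteases of primary granules in promyelocytes, the antimicrobial proteins of secondary granules in later precursors. Mature neutrophils in tissue are known to hold little messenger RNA of these granule proteins, while S100a8 and S100a9 transcripts stay abundant in them. The 4T1 tumor is known for driving the release of granulocytic cells from the marrow. In whole-tissue RNA such as this, fewer cells of a type and less RNA per cell cannot be told apart.

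The values are log2 relative quantities, which are minus the difference between an assay's quantification cycle (Cq) and the mean Cq of 5 reference genes, so that a difference of 1 is a 2-fold difference. In the 11 mice, 871 of 7128 reactions (12.2%) gave no Cq, and 418 of 648 assays gave one in all 11. Ptprc (CD45, carried by all leukocytes), Cd14 and Fn1 (fibronectin, a matrix protein of stroma) gave a Cq in all 11 mice, and the epithelial keratin gene Krt8 in 6 of 8 mice at day 14 and 3 of 3 at day 21. The leukocyte, stromal and epithelial parts that the tissue label names thus each had a marker with a Cq. Other keratin genes varied. Krt7 gave a Cq in all 11 mice, and Krt1 in 1 of 8 at day 14 and 0 of 3 at day 21. A Cq in whole-tissue RNA does not show which cells held the transcript. Between 562 and 586 assays gave a Cq in each mouse except day 14 mouse 21, with 489.

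No assay passed the threshold of an adjusted p under 0.05 (limma with Benjamini-Hochberg adjustment), 0 of 583 tested (0%). Without adjustment, 60 assays (10.3%) had a p under 0.05, 44 of them higher at day 21 (7.55%) and 16 lower (2.74%). The lowest adjusted p was 0.0878, shared by Itgb2l and Cxcr4. An exact two-sided permutation test over the 165 ways to choose 3 of 11 mice cannot go below p = 0.0121. It reached that value for 12 of the 418 assays measured in all mice, and its lowest adjusted p was 0.416. Every measured day 21 value lay above every measured day 14 value in 21 assays (3.6%) and below in 9 (1.54%), assays with missing mice included. The median difference over all assays was 0.073, and -0.015 when raw Cq were centred on each sample's median, so differences near 0.1 carry no direction. Every difference below is therefore given as an estimate that did not pass, unless a setting in which it passed is named. The plot of the difference against its p-value shows the tested assays.

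**Figure D1:**
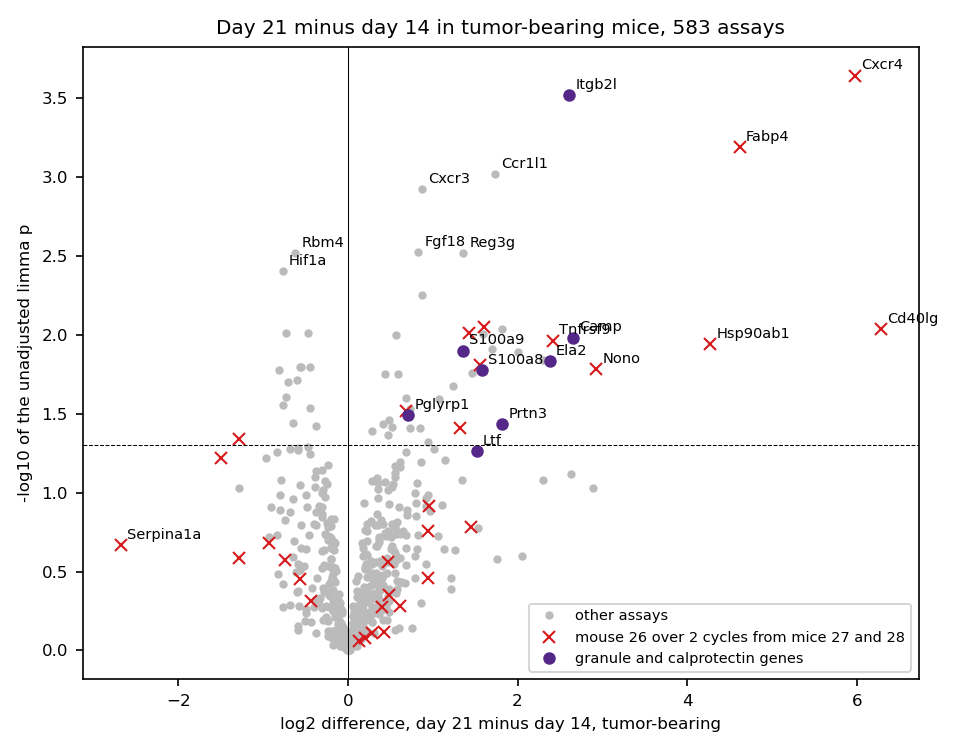
Log2 difference between day 21 and day 14 tumor-bearing mice (x axis) against minus log10 of the unadjusted limma p (y axis), 1 point per assay, 583 assays. Crosses are assays in which day 21 mouse 26 lay over 2 cycles from mice 27 and 28, filled purple points are the 8 granule and calprotectin genes, all of them right of 0, and the dashed line marks the unadjusted threshold of 0.05.

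A measurement feature of the day 14 mice bears on everything that follows. The samples were run on 7 physical panels, named A to G here. At day 14, tumor-bearing mice 15 to 18 were on panel G, mouse 19 on A, mouse 20 on B, mouse 21 on E and mouse 22 on F. At day 21, mouse 26 was on E, mouse 27 on F and mouse 28 on C, so only panels E and F hold a mouse of each day. Ppia (cyclophilin A, a common reference gene that was not among the 5 used for normalization) separated the day 14 mice. Its log2 relative quantity was 3.37 to 3.69 in tumor-bearing mice 15 to 19, on panels A and G, and 4.34 to 4.48 in mice 20 to 22, on panels B, E and F. Healthy day 14 mice showed the same gap, 3.48 to 3.83 on panels A and D against 4.39 to 4.53 on B, E and F. All day 21 mice lay at the upper level, 4.29 to 4.51 with tumor and 4.27 to 4.49 without. The other 2 Ppia assays also separated the day 14 mice by these panels in both conditions, with healthy day 21 mice at 2.27 to 3.43 in assay Mm02342430_g1, across both levels. Of 538 assays measured on both sides, 17 (3.16%) were higher and 11 (2.04%) lower on panels B, E and F than on A, D and G, without overlap and in both conditions. Beyond the panel, the labels name nothing that sets these day 14 mice apart. Many results are therefore also given for the day 14 mice on panels B, E and F alone, 3 mice against 3, a setting added after these values were seen. With these mice, 0 of 556 assays passed the threshold and 32 (5.76%) had an unadjusted p under 0.05. Without panel G alone, 0 of 578 passed and 34 (5.88%) were under 0.05.

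The granule and calprotectin genes were higher at day 21 in every tested member of the list, and most of that difference lay between day 21 and the day 14 mice on panels A and G. Of 17 listed genes, 8 are on the gene panel and all 8 were tested. The list was chosen with earlier results of these data known, so its counts are no independent support. All 8 differences were positive, where 59.2% of all assays were. An unadjusted p under 0.05 was found for 7, where 10.3% of all assays had one, and none passed after adjustment. The median was 1.70 against 0.07 over all assays tested. Against the day 14 mice on panels B, E and F the median was 0.53, with 1 of 8 under 0.05, where 5.76% of all assays were. Within panels, the median difference was 0.07 over 7 genes on panel E and 0.83 over 8 genes on panel F. The part of Ppia's panel-linked gap in these differences was not tested.

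For 3 of these genes the RefSeq sequence before the start (GRCm38.p6, the 250 bases before the annotated start, 5' to 3' on the gene's strand) is shown, as Itgb2l kept its difference in every panel setting, Camp had the largest difference of the list, and S100a8 was measured by 2 assays. Itgb2l lies at chr16:96443615-96443864 on the minus strand, Camp at chr9:109849457-109849706 on the minus strand and S100a8 at chr3:90668821-90669070 on the plus strand. The RefSeq gene span of Itgb2l reaches 96443664. The part of its window nearest the start thus lies within that span, unlike for Camp and S100a8. Capitals mark matches on either strand to TTNNGNAA, letters of the kind bound by C/EBP factors, which act in granulocyte genes, or to TATAAA, the TATA box, which do not overlap each other here.
Itgb2l: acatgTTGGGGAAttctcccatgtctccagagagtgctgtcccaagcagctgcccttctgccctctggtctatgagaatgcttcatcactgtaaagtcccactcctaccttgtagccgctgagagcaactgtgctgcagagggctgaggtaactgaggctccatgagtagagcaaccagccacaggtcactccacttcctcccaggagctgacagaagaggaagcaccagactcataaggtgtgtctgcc
Camp: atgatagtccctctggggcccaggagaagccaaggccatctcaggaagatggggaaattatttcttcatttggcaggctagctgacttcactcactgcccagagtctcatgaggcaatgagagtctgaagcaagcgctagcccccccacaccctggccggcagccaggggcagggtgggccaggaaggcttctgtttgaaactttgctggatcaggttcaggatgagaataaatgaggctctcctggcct
S100a8: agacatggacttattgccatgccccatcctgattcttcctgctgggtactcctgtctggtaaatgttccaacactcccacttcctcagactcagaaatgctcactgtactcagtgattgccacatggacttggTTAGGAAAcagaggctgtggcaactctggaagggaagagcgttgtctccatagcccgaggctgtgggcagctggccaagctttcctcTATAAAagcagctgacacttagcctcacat
The first of these motifs was found in 36.8% and the second in 12.4% of 32851 such windows. Itgb2l held 1 match of the first, 245 bases before the start from which its window was counted. S100a8 held 1 of each, 117 and 30 bases before its start, and the Camp window held neither.

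Itgb2l encodes a beta integrin-like subunit known from granulocyte precursors, and its level was low. Its log2 relative quantity was -7.94, -8.51 and -9.90 in day 21 mice 26, 27 and 28, against a lowest of -12.83, a median of -11.14 and a highest of -10.44 in the 8 day 14 mice. Every day 21 mouse lay above every day 14 mouse. The difference was 2.61 ± 0.53 (SE), or 6.09-fold (95% interval 2.74 to 13.5, adjusted p = 0.0878, from 0.0319 to 0.816 over the alternatives). It was 2.68 within panel E, 2.63 within panel F and 2.73 ± 0.66 against the day 14 mice on panels B, E and F. Itgb2l was the only member of the list whose 3 values in those settings stayed within 0.2 of the difference over all mice. Only 1 healthy mouse at day 14 and 2 at day 21 gave a Cq, so its change over time in healthy mice was not testable.

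Camp encodes the cathelicidin precursor of secondary granules. Its log2 relative quantity was -2.68, -2.39 and -2.41 in the day 21 mice. In the day 14 mice it was -6.23, -6.38, -7.10 and -6.32 on panel G, -6.75 on panel A, and -3.49, -3.52 and -3.23 on panels B, E and F. The day 21 mice were close together and above all day 14 mice, and the day 14 mice fell into the same sets of panels as for Ppia. The difference was 2.65 ± 0.95, 6.29-fold (95% interval 1.61 to 24.5, adjusted p = 0.289). It came to 0.83 and 0.84 within panels E and F, and to 0.85 ± 0.88 against the day 14 mice on panels B, E and F. Healthy mice did not show the gap: their Camp ran from -11.97 to -9.10 on panels A and D and from -11.56 to -6.45 on B, E and F.

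Ltf (lactoferrin, an iron-binding protein of secondary granules) was -2.10, -1.98 and -1.57 at day 21, against a lowest of -4.54, a median of -3.73 and a highest of -1.55 at day 14. The groups overlapped through mouse 21, and the difference of 1.52 ± 0.75 (adjusted p = 0.477) became 0.41 ± 0.75 with the day 14 mice on panels B, E and F. Pglyrp1, a peptidoglycan recognition protein of the same granules, was -3.93, -4.20 and -3.92 at day 21 and -5.60 to -3.84 at day 14 (difference 0.71 ± 0.31, adjusted p = 0.401). This difference was 0.20 ± 0.34 on panels B, E and F.

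The primary granule proteases were also lowest in the day 14 mice of panel G, while mouse 19 of panel A lay with those of panels B, E and F. Ela2 (now Elane, neutrophil elastase) was -6.31, -5.32 and -5.33 at day 21 and -9.91 to -6.55 in the 7 day 14 mice with a value. The day 21 mice lay above all of them, with a difference of 2.38 ± 0.88, 5.19-fold (95% interval 1.44 to 18.7, adjusted p = 0.289), and of 1.06 ± 1.08 against the day 14 mice on panels B, E and F. Prtn3 (proteinase 3) was -4.64, -4.07 and -3.91 at day 21. At day 14 it ran from -8.03 to -7.17 on panel G and from -5.14 to -3.70 on the other panels. Mouse 21, on panel E, had the highest Prtn3 of all 11 mice, and the difference of 1.82 ± 0.80 (adjusted p = 0.408) was -0.94 within panel E, 0.97 within panel F and 0.39 ± 0.53 on panels B, E and F. Prtn3 and Elane are neighbours on chromosome 10, 3137 bases apart in GRCm38.p6, and have separate assays.

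S100a8 and S100a9 encode the subunits of calprotectin, a calcium-binding protein that fills the neutrophil cytoplasm. S100a9 was 1.77, 1.11 and 2.05 at day 21, against a lowest of -1.31, a median of 0.21 and a highest of 1.34 at day 14. The groups overlapped, with a difference of 1.36 ± 0.51 (adjusted p = 0.289) and of 0.64 ± 0.55 on panels B, E and F. S100a8 differed by 1.58 ± 0.61 and by 1.82 ± 0.64 in its 2 assays (adjusted p = 0.289 for both). Its assay with the higher level ran from -1.16 to 0.08 in day 14 mice on panels A and G, from 1.69 to 2.26 on B, E and F, and from 1.74 to 2.66 at day 21. On panels B, E and F the differences were 0.23 ± 0.29 and 0.50 ± 0.29. Unlike Camp, S100a8 showed the panel-linked gap in healthy day 14 mice as well, -2.68 to -1.06 on panels A and D against -0.36 to -0.06 on B, E and F.

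**Figure D2:**
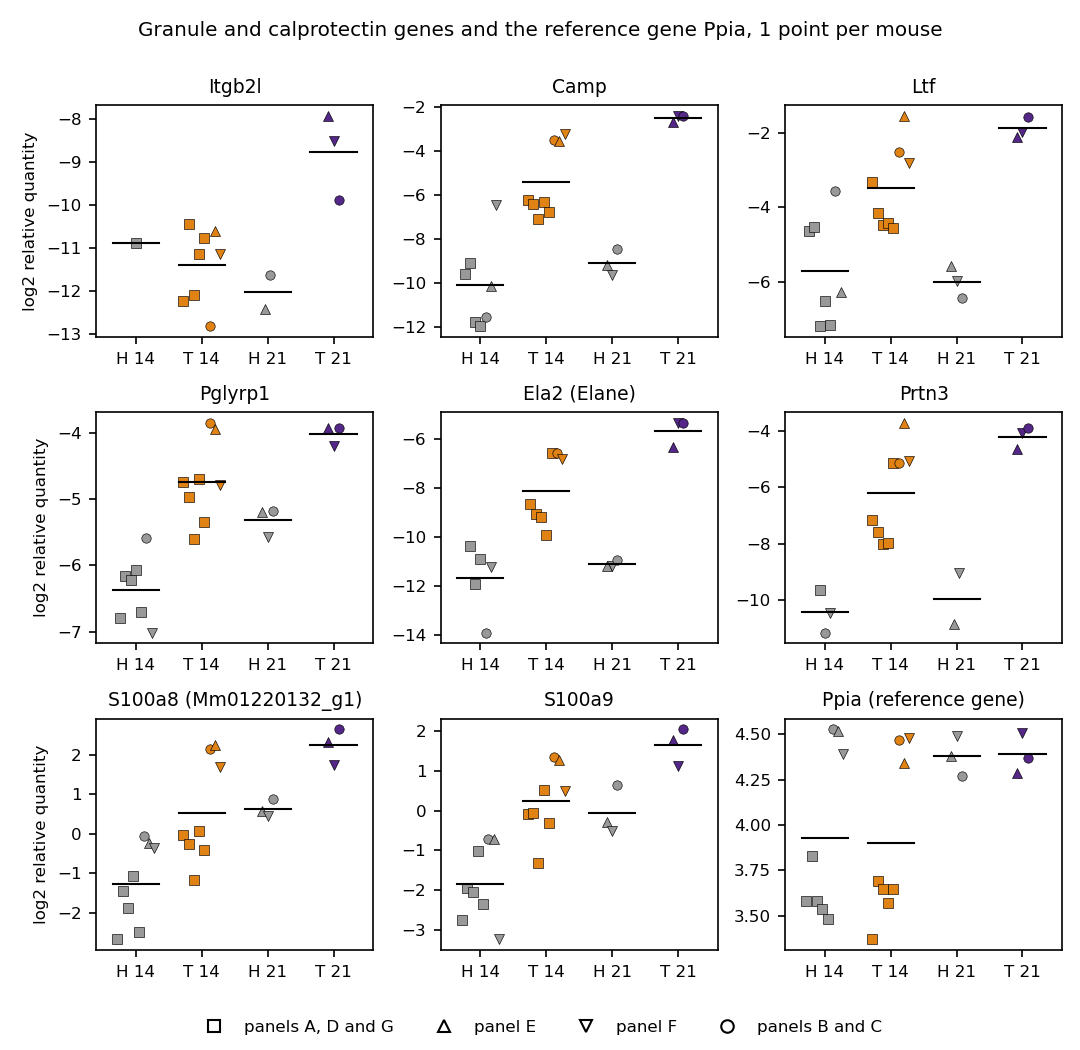
Log2 relative quantity (y axis) of the 8 granule and calprotectin genes and of Ppia in healthy (H, grey) and tumor-bearing (T) mice at days 14 (orange) and 21 (purple), 1 point per mouse, with a line at each group's mean and the marker shape giving the panel. The day 14 squares of tumor-bearing mice, on panels A and G, lie at 3.37 to 3.69 for Ppia and at -7.10 to -6.23 for Camp, below the other day 14 points, while for Itgb2l every day 21 point lies above every day 14 point of tumor-bearing mice.

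The list's difference between day 14 and day 21 in healthy mice was also mostly positive. Whether it was larger with tumor depended on the day 14 mice used and on how panel was fitted. In healthy mice 6 of 7 testable members were positive. Their median was 0.87 over all mice and also with the day 14 mice of panels B, E and F. Over all assays the healthy median was -0.02 and -0.00 in these settings. The difference between the 2 conditions, tumor-bearing minus healthy, had a median of 1.37 over 7 members with all mice. It was -0.48 with the day 14 mice of panels B, E and F. With all mice and panel as a fixed block it was -0.58, where the tumor-bearing median was 0.88 and the healthy one 1.21. In each setting 0 of 7 had an unadjusted p under 0.05. S100a9 differed by 1.79 ± 0.51 between the days in healthy mice and S100a8 by 1.83 ± 0.61. On panels B, E and F these were 1.52 ± 0.55 and 0.87 ± 0.29. Neutrophil receptor and oxidase genes did not share the pattern of the granule list. Of these, 6 of 10 were positive, where 59.2% of all assays were, with a median of 0.03. Under 0.05 was 1 of the 10, where 10.3% of all assays were. That gene was Ltb4r1, the receptor for leukotriene B4, at 0.73 ± 0.31 (adjusted p = 0.38) and 0.29 ± 0.24 on panels B, E and F. Il8rb (now Cxcr2, the receptor for neutrophil-attracting chemokines) differed by 0.47 ± 0.34 (adjusted p = 0.641).

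Ccr3 and Fcer1a had the smallest p-values among the mast cell, basophil and eosinophil markers. Of these markers 6 of 7 were positive, where 59.2% of all assays were, and 2 were under 0.05, where 10.3% were. Their median was 0.48. With the day 14 mice on panels B, E and F the median of this list was 0.07 over 6 genes. Of these 1 was under 0.05, where 5.76% of all assays were. Ccr3, the eotaxin receptor of eosinophils, was -3.58, -4.23 and -4.07 at day 21, against a lowest of -5.72, a median of -4.83 and a highest of -4.33 at day 14. All day 21 mice lay above all day 14 mice. The difference was 0.87 ± 0.29, 1.83-fold (95% interval 1.21 to 2.75, adjusted p = 0.289, exact permutation p = 0.0121). It was 1.24 and 0.71 within panels E and F and 0.90 ± 0.25 on panels B, E and F, and the other Ccr3 assay gave 0.59 ± 0.23. Fcer1a, the IgE-binding chain of the receptor of mast cells and basophils, was -9.54, -8.03 and -8.48 at day 21 and -10.70 to -9.79 in the 6 day 14 mice with a value, again without overlap (difference 1.46 ± 0.56, adjusted p = 0.289). It differed by 1.43 between the days in healthy mice. Prg2, the eosinophil major basic protein, spread from -11.22 to -4.46 over the day 14 mice, with a difference of 1.26 ± 1.02 (adjusted p = 0.671) that was -0.28 on panels B, E and F.

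Among chemokine and lymphocyte receptors, Cxcr3, which binds interferon-induced chemokines on activated T and NK cells, was -3.10, -4.14 and -4.30 at day 21 in its assay Mm99999054_s1. The day 14 values had a lowest of -5.02, a median of -4.67 and a highest of -4.39, so the groups did not overlap, and mouse 26 was the highest. The difference was 0.87 ± 0.24 (adjusted p = 0.139), 0.49 without mouse 26 and 0.96 ± 0.31 on panels B, E and F. The other Cxcr3 assay gave 1.56 ± 0.60 with mouse 26 at -0.40 against -5.35 and -5.00, and -0.04 once that reaction was left out. Ccr1l1, a receptor gene related to Ccr1, was -8.24, -7.27 and -6.61 at day 21 and -9.69 to -7.98 in 7 day 14 mice, overlapping through mouse 20 (difference 1.73 ± 0.45, adjusted p = 0.139). Cx3cr1, the fractalkine receptor of monocytes, differed by 0.44 ± 0.17 (adjusted p = 0.289), and Ccr2, the receptor that brings monocytes out of the marrow, by 0.44 ± 0.32 (adjusted p = 0.641). Ccr2 was above all 7 measured day 14 mice in each day 21 mouse, 0.25, 0.04 and -0.17 against a highest of -0.21. Of 5 monocyte and macrophage markers 4 were positive, where 59.2% of all assays were, with a median of 0.44. On panels B, E and F the median was 0.22, and Ccr2 differed by 0.27 ± 0.36.

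Growth factors and secreted defence proteins followed. Csf2 (GM-CSF, which drives granulocyte and macrophage production) was -7.25, -7.61 and -6.80 at day 21, against a lowest of -8.87, a median of -8.25 and a highest of -7.87 at day 14. The groups did not overlap, and the difference of 1.07 ± 0.45 (adjusted p = 0.354) was 1.11 ± 0.56 on panels B, E and F. Healthy mice differed by 1.71 between the days, and the other Csf2 assay gave 0.63 ± 0.69 in tumor-bearing mice. Reg3g, an antibacterial lectin, was -0.79, -1.97 and -0.87 at day 21 and -3.01 to -1.89 in 7 day 14 mice, overlapping through mouse 27 (difference 1.36 ± 0.41, adjusted p = 0.221). Its healthy difference was 1.91. Fgf18, a fibroblast growth factor, was -3.12, -3.52 and -3.60 against a highest of -3.94 in 7 day 14 mice. This difference of 0.83 ± 0.25 (adjusted p = 0.221) was 1.15 ± 0.24 on panels B, E and F (adjusted p = 0.113), and in healthy mice it was -0.19. The difference between the conditions for Fgf18 was 1.02 ± 0.35 (adjusted p = 0.564).

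Cd55 encodes decay-accelerating factor, which protects cells from complement. It was -3.18, -3.08 and -3.28 at day 21, against a lowest of -4.50, a median of -3.71 and a highest of -3.25 at day 14. The day 21 mice were within 0.2 of each other, while mice 15 and 18 on panel G reached their range. The difference of 0.57 ± 0.20 (adjusted p = 0.289) was 0.88 without panel G (adjusted p = 0.0663) and 0.94 ± 0.20 on panels B, E and F (adjusted p = 0.113), with 1.32 and 0.91 within panels E and F. Its difference from the change in healthy mice was 0.83 ± 0.29 (adjusted p = 0.564). C6, a component of the membrane attack complex, differed by 1.24 ± 0.50 (adjusted p = 0.317), by 0.75 ± 0.49 on panels B, E and F and by 0.80 without mouse 27. Of 19 complement genes tested, 13 were positive, with a median of 0.20 and 2 under 0.05. Over all assays tested, 59.2% were positive and 10.3% under 0.05, with a median of 0.07. Cd1d1, which presents lipids to NKT cells, was -5.28, -5.17 and -4.80 at day 21 and -6.53 to -5.34 in 7 day 14 mice, without overlap (difference 0.85 ± 0.39, adjusted p = 0.408, and 1.10 ± 0.34 on panels B, E and F).

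Transcripts lower at day 21 included Tgfb1, Hif1a and Tlr2. Tgfb1, the immune-suppressive and fibrosis-promoting cytokine, was -0.48, -0.06 and 0.14 at day 21, against a lowest of 0.20, a median of 0.41 and a highest of 0.74 at day 14. All day 21 mice lay below all day 14 mice, and the day 14 mice were within 0.6 of each other. The difference was -0.57 ± 0.22, or 0.675-fold (95% interval 0.493 to 0.923, adjusted p = 0.289), with -0.81 and -0.80 within panels E and F and -0.62 ± 0.27 on panels B, E and F. In healthy mice the days differed by -0.04, and the difference between conditions was -0.53 ± 0.31 (adjusted p = 0.745). Of the 16 TGF-beta and BMP genes tested, 7 were positive and 9 negative, where 59.2% of all assays were positive.

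Hif1a, the oxygen-regulated transcription factor, was -1.35, -2.34 and -0.81 at day 21 and -1.05 to -0.43 at day 14, overlapping through mouse 28 (difference -0.77 ± 0.24, adjusted p = 0.256). Mouse 27 was the lowest, and the difference was -0.34 without it and -1.10 without mouse 28. Ddx58, the RIG-I sensor of viral RNA, and Siglec1, a macrophage sialic acid receptor, were chosen after their values were seen. They differed by -0.71 ± 0.28 and -0.73 ± 0.30, which came to -0.30 ± 0.32 and -0.35 ± 0.35 on panels B, E and F. The interferon list as a whole was split, 5 of 12 positive, where 59.2% of all assays were, with a median of -0.03.

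Tlr2, the receptor for bacterial lipoproteins, was -3.23, -2.20 and -1.94 at day 21, against a lowest of -2.21, a median of -1.92 and a highest of -1.27 in 7 day 14 mice. The difference of -0.60 ± 0.24 (adjusted p = 0.303) was -0.85 without panel G and -1.0 ± 0.33 on panels B, E and F, but -0.22 without mouse 26. Il6, the acute-phase cytokine, lay below all day 14 mice in its assay Mm01210732_g1, -8.48, -9.13 and -8.36 against -8.27 to -7.17 (difference -0.91 ± 0.57, adjusted p = 0.591). The other Il6 assays gave -0.74 ± 0.50 and -0.33 ± 0.44. Nlrc4, an inflammasome sensor, differed by -0.73 ± 0.26 (adjusted p = 0.289) over 2 day 21 values. Rbm4 (an RNA-binding splicing regulator) and Nup85 (a nuclear pore subunit) differed by -0.62 ± 0.19 and -0.47 ± 0.17 (adjusted p = 0.221 and 0.289), and Nup85 by -0.23 without mouse 27 and -0.77 without mouse 28.

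**Figure D3:**
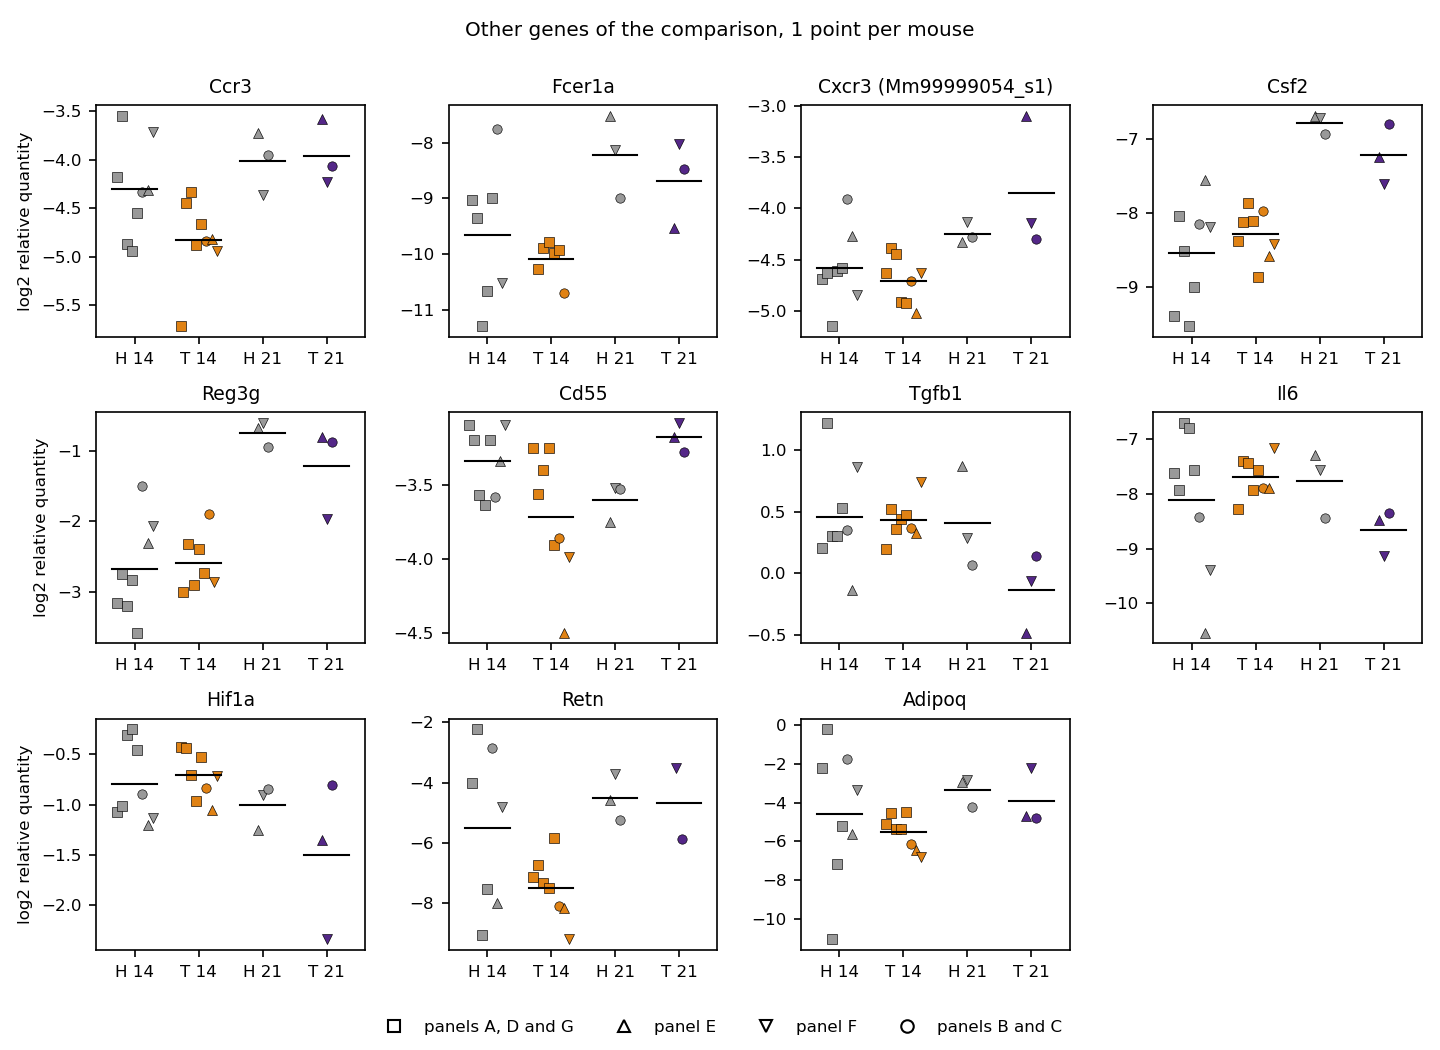
Log2 relative quantity (y axis) of 11 further genes, with groups, colours and marker shapes as in the plot of granule genes. Tgfb1 and Il6 have all day 21 tumor-bearing points below the day 14 ones (for Tgfb1 -0.48 to 0.14 against 0.20 to 0.74), Ccr3, Csf2 and Cxcr3 have them above, and Csf2 and Reg3g also have higher healthy means at day 21.

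**Figure D4:**
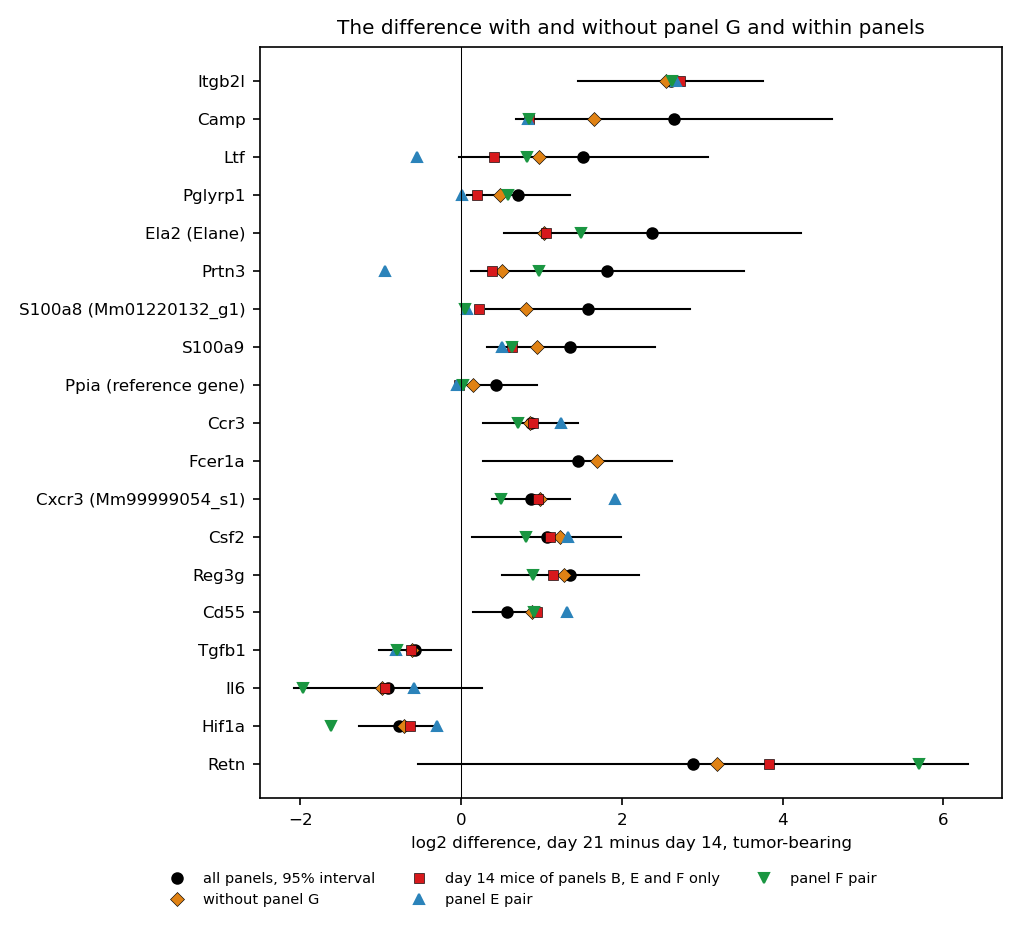
Log2 difference, day 21 minus day 14 (x axis), for the genes of both dot plots except Adipoq. Black points are estimates over all mice with 95% intervals, diamonds leave out panel G, squares keep only the day 14 mice of panels B, E and F, and triangles are the single pairs on panels E and F. For Camp the estimates run from 2.65 over all mice down to 0.83, while those of Itgb2l stay between 2.55 and 2.73.

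Several of the largest differences rested on single reactions of day 21 mouse 26. In 32 assays its normalized value lay over 2 cycles from the mean of mice 27 and 28 (or the 1 of them with a Cq), earlier in 18 and later in 14. Of the 31 that were tested, 6 were among the 20 smallest p-values and 12 had an unadjusted p under 0.05. All 12 lost it when those reactions were left out, 2 of them because too few values remained, and 49 of 575 assays (8.52%) were then under 0.05. Mice 27 and 28 had outlying reactions as well. Against the median of the other 2 day 21 mice, 23 of 522 reactions of mouse 26 lay over 2 cycles away. The counts were 25 for mouse 27 and 13 for mouse 28, and over 4 cycles 8, 3 and 5 for mice 26, 27 and 28. For Fpr3, among the 32, raw Cq was 28.92 in mouse 26, 29.25 in mouse 27 and 24.82 in mouse 28. The raw Cq shows the size of the largest gaps of mouse 26. Hsp90ab1, a cytosolic chaperone, crossed at cycle 3.65 in mouse 26 and at 16.82 and 17.71 in mice 27 and 28. Cxcr4, the CXCL12 receptor that keeps neutrophils in the marrow, crossed at 6.86 in mouse 26 and 18.95 in mouse 28, gave no Cq in mouse 27, and crossed between 18.20 and 19.17 in the day 14 mice. In normalized units mouse 28 was at -0.06, inside the day 14 range of -0.62 to -0.02, so the fitted difference of 5.98 ± 1.37 came from mouse 26 alone.

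Fabp4, a fatty acid carrier of adipocytes and macrophages, had the same layout in assay Mm01295675_g1, with raw Cq of 7.64 in mouse 26, none in mouse 27 and a fitted difference of 4.62 ± 1.16, while the other Fabp4 assay gave 0.23. Nono, a nuclear RNA-binding protein, crossed at 8.83 against 18.95 and 18.80. Cd40lg, the T cell ligand of CD40, crossed at 14.02 against 30.37 and 29.44, and its difference of 6.28 ± 2.17 became 0.99. Tnfrsf9 (4-1BB) went from 2.42 to 0.06, Bre from 1.61 to -0.01 and Gdf3 from 1.43 to 0.42. Raw Cq under 10 occurred 4 times in mouse 26 and 3 times in the other 27 samples together. The plot of raw Cq shows these reactions far from the line on which the remaining assays lie.

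**Figure D5:**
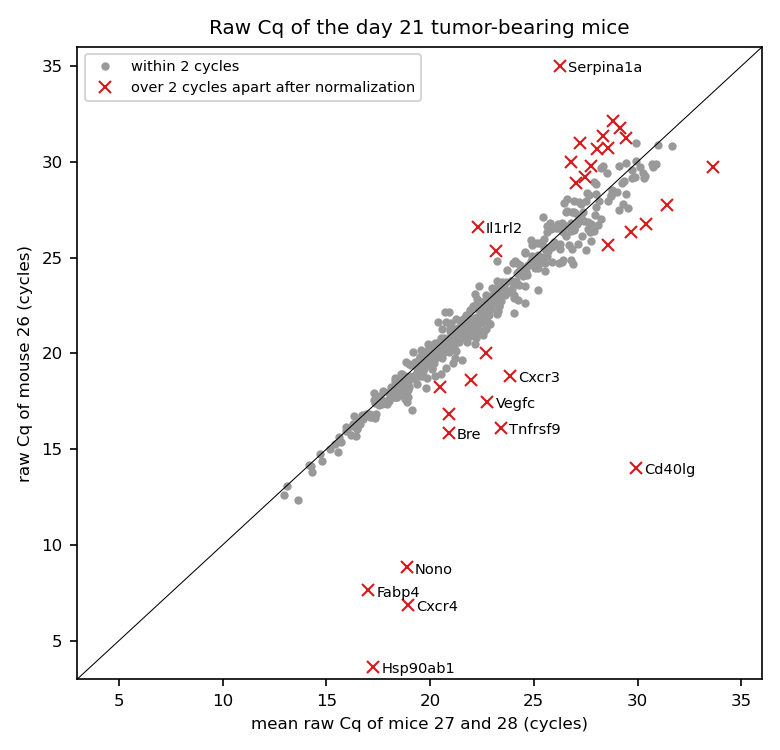
Raw Cq of day 21 mouse 26 (y axis, cycles) against the mean raw Cq of mice 27 and 28 (x axis, cycles), 1 point per assay, with the line of equal values. Crosses mark the 32 assays over 2 cycles apart after normalization, the lowest being Hsp90ab1 at 3.65.

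Adipocyte genes had a median difference of 1.53 over 7 tested genes, and mouse 27 held most of it. Of these genes 5 were positive and none under 0.05, where 59.2% and 10.3% of all assays were. Adipoq (adiponectin, the main adipocyte hormone) was -4.68, -2.19 and -4.81 at day 21, against a lowest of -6.83, a median of -5.35 and a highest of -4.46 at day 14. Only mouse 27 lay above all day 14 mice, and the difference was 1.76 ± 1.54 (adjusted p = 0.706). Over the list, mouse 27 deviated from the day 14 means by a median of 3.10, against 0.21 for mouse 26 and 0.72 for mouse 28. On panels B, E and F the list's median was 2.40, again with none under 0.05, and Adipoq differed by 2.67 ± 1.34. Retn (resistin) had values of -3.52 and -5.87 in mice 27 and 28 and none in mouse 26, against -9.22 to -5.86 at day 14. The leptin gene Lep differed by 1.53 ± 1.07 and Cfd (adipsin, a complement protease of fat) by 2.05 ± 1.74. Pparg, the regulator of fat cell formation, went the other way, at -0.39 ± 0.21 and -0.55 ± 0.21 in its 2 assays (adjusted p = 0.545 and 0.289). How much subcutaneous fat each biopsy held was not measured apart from these genes.

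Most other lists had medians within 0.25 of that of all assays. T cell markers were positive in 7 of 8 genes, where 59.2% of all assays were, with a median of 0.70. The 1 gene under 0.05 was Cd40lg, described above. Without mouse 26 their median was 0.26 over 6 genes. With only the outlying reactions of that mouse left out it was 0.70 over 8 genes, and on panels B, E and F 0.45 over 7. Foxp3, the regulatory T cell factor, differed by 0.97 ± 0.62 over 2 day 21 values (adjusted p = 0.611), and by 1.84 ± 0.65 on panels B, E and F. Classical inflammatory activation genes had 7 of 16 positive and a median of -0.07. Alternative macrophage activation genes had 9 of 14 and 0.20, where 59.2% of all assays were positive. On panels B, E and F these medians were -0.27 and -0.09. In the latter list Il4ra, the shared receptor chain for IL-4 and IL-13, had nearly equal day 21 values of -0.94, -0.94 and -0.90 and differed by 0.41 ± 0.18 (adjusted p = 0.408), but by 0.11 ± 0.19 on panels B, E and F. Chi3l3 (now named Chil3) encodes a secreted lectin of myeloid cells and was chosen after its values were seen. It differed by 1.15 ± 0.59 and by 0.16 ± 0.41 on those panels. Toll-like receptor and NF-kappaB genes had a median of 0.02 over 19 genes, TNF ligands and receptors 0.00 over 25, matrix and fibroblast genes -0.15 over 5, endothelial and adhesion genes -0.15 over 6, and eicosanoid genes 0.13 over 11. Housekeeping genes had a median of 0.03 over 13 genes. Actb (beta-actin) was 5.35, 5.67 and 5.46 at day 21 and 5.74 to 6.31 at day 14, without overlap (difference -0.39 ± 0.22, adjusted p = 0.549).

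Whether tumor-bearing and healthy mice differed in their change from day 14 to day 21 was tested directly. No assay passed (0 of 571, lowest adjusted p = 0.478), and 31 (5.43%) had an unadjusted p under 0.05. The smallest p-values belonged to Il19, Bmp15 and Fabp4. Il19, an IL-10 family cytokine, differed by 1.59 ± 0.52 between the days with tumor, over 5 and 2 values, and by -1.15 without it, and Bmp15, a growth factor best known from the ovary, by 1.70 ± 0.62 and -1.10. Both were at low levels, with means of -12.12 and -11.38 at day 14. Atrn (attractin, a membrane protein also shed into serum) passed under 2 other settings and was chosen after this was seen. Its difference between conditions was 1.56 ± 0.90 over all mice (adjusted p = 0.745), 3.03 ± 0.60 with panel as a fixed block (adjusted p = 0.0448) and 3.33 ± 0.56 with the day 14 mice of panels B, E and F (adjusted p = 0.0217). In these settings healthy mice differed by -3.23 ± 0.45 and -3.25 ± 0.40 between the days, while tumor-bearing mice differed by -0.20 over all mice and by 0.08 ± 0.40 on panels B, E and F. No other assay passed this test under the settings run.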

How the data were processed

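RNA of each scaffold was reverse transcribed and run on a TaqMan OpenArray mouse inflammation panel, per the labels' protocols. The authors deposited raw Cq (PCR cycles) and normalized values, ratios on a linear scale, per the file headers. The Cq-calling software and cycle number: not given in the sources used here. The header names no reference genes: the deposited ratios equal 2 to the power of the mean Cq of 5 reference assays minus the assay's Cq, within 2.96e-05 cycles. Log2 of these ratios was fitted with limma 3.58.1 (R 4.3.3, statmod 1.5.0), 1 mean per group over all 28 samples, panel as a random block (correlation 0.054). An assay needed values in 50% of some group (609 assays) and 2 values in each group compared. All adjusted p come from this model with Benjamini-Hochberg adjustment over the assays tested, the threshold is 0.05, and ± is the SE. The script was tested on simulated data without a panel effect or outlying reactions, so that test does not cover these features. Missing reactions stayed missing. Some assays are not reported here.

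Genes named are the 20 smallest p, the granule list, the 2 smallest p of lists with 5 or more genes, and the 3 smallest of the difference between conditions. Where a gene has several assays, its list entry is the assay with most values, then the higher level. Others were chosen after their values were seen. The members and lists were chosen with earlier results of these data known. Symbols are the file's, and 618 of 648 assays matched 1 RefSeq gene. The number of mice limits precision (median SE 0.31).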

Additional observations from a re-analysis of the deposited data

Results flagged for a closer look

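Among the day 14 tumor-bearing mice, 61 sets of values were checked for a sample far from the others by Dixon's criterion, and chance alone marks about 1 set in 20. It marked 8. Cxcr4 was -0.62 in mouse 18 (nearest -0.28) and Il1rn 2.54 in the same mouse (nearest 2.74). Fgf18 was -4.88 and Il13ra2 -8.18 in mouse 20 (nearest -4.28 and -7.78). Ccr3 was -5.72 in mouse 15 (nearest -4.94), the lowest value behind the Ccr3 difference, and Actb was 6.31 in that mouse (nearest 5.97). Mouse 21 had a Cq in 489 assays, against 562 to 586 in the other day 14 mice. Mouse 15 had 45 reactions over 2 cycles from the median of the other day 14 mice, 44 of them at a lower level, against at most 21 in any other day 14 mouse.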

How the results depend on the processing

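No paired analysis was possible because nothing in the labels ties mice of the 2 days to each other. Panel served as a block instead, and only panels E and F hold a mouse of each day. The count of assays past the threshold was 0 for day 21 minus day 14 under every setting run that keeps all 11 mice, without panel G, and without the day 14 samples of panels A, D and G. Leaving out each mouse in turn gave 0 to 9: 9 without mouse 27 (Bre, Cd40lg, Cxcr3, Cxcr4, Fabp4, Gdf3, Hsp90ab1, Nono and Tnfrsf9), 6 without mouse 28 (Cxcr3, Hif1a, Hsp90ab1, Itgb2l, Nup85 and Rbm4) and 0 without any other mouse. The difference between conditions gave 1 call, Atrn, with panel as a fixed block and 1, again Atrn, without the day 14 samples of panels A, D and G, and 0 otherwise.

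Of 1556 values of named assays under the alternatives, 17 reversed, over 14 assays. Giving missing reactions the largest Cq of the table, Cxcr4 was -3.11, Fabp4 -4.26, Bmp15 -2.15, Xcr1 -2.25, Retn -2.58, Foxp3 -3.42, Tlr2 2.95, Jak2 0.16, Igf1 0.19 and Hgf 0.18. Jak2, Igf1 and Hgf lack no reaction in the groups compared, and the cause was not tested. Bre was -0.01 without reactions over 4 cycles from the group median, -0.01 without the outlying reactions of mouse 26 and from -0.00 (without that mouse) to 2.56 (without mouse 27) when single mice were left out. Without panel G and those reactions, Gdf3 was -0.14 and Tnfrsf9 -0.16. Without the day 14 samples of panels A, D and G, Ppia was -0.03 and Hgf 0.01, and Il19, Il2, Il17f and Fcer1a could not be fitted. With centred raw Cq the median of all assays moved from 0.073 to -0.015.

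With 3 mice at day 21 the median SE was 0.31, which limits the differences that could be detected. Panels A, B and G hold day 14 but no day 21 tumor-bearing mice, and panel C holds day 21 but no day 14 mice. For these panels day and panel cannot be told apart, also for mouse 20 on B and mouse 28 on C in the setting with panels B, E and F. A missing Cq gives no level, so an assay absent in some mice rests on the others.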

Other observations

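Prok2 (prokineticin 2, a secreted peptide that myeloid cells can make) was chosen after its values were seen. It was -10.80 and -10.68 in day 21 mice 27 and 28 and -12.82 in mouse 26, against -12.65 to -12.17 in the 3 of 8 day 14 mice with a value. The difference was 0.94 ± 0.61 (adjusted p = 0.641), and 1.62 without the reaction of mouse 26 (adjusted p = 0.224). Both leave out the day 14 mice without a Cq. The other Prok2 assay gave a Cq in 4 of 8 mice at day 14 and 1 of 3 at day 21 and was not tested. The keratin gene Krt8 was spread at day 21, with -6.45, -5.85 and -10.40 against -9.94 to -7.76 at day 14 (difference 1.21 ± 1.44, adjusted p = 0.827). Tnfsf11 (RANKL, the osteoclast-inducing cytokine) differed by -0.81 ± 0.32 (adjusted p = 0.289), and by -0.52 on panels B, E and F.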
